A study of Arabidopsis thaliana with 6 samples.

Results

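The genes described here encode 7 half-size transporters of the ABCG subfamily that are associated with lipid barriers of plant surfaces, namely ABCG1 (AT2G39350), ABCG2 (AT2G37360), ABCG6 (AT5G13580), ABCG11 (AT1G17840), ABCG16 (AT3G55090), ABCG20 (AT3G53510) and ABCG23 (AT5G19410). They are 7 of the 32833 genes in the deposited table, and all 7 had reads in every library. They were picked by gene name with the difference between the genotypes already known, so that difference is described for them and not tested. RNA was sequenced from roots of Arabidopsis thaliana in 2 groups of 3 biological replicates, wild-type Col-0 plants (WT) and xal1-2, a loss-of-function mutant of the MADS-box gene XAL1 in the Col-0 background. Each replicate pooled about 60 seedlings, 8 days after sowing, grown on 0.2X Murashige and Skoog medium with 1% sucrose, and the whole root was taken without hypocotyl and cotyledons. The series asks which genes differ between the short roots of the mutant and those of the WT.

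Suberin is a polyester of fatty acids, fatty alcohols and glycerol that is laid down in the walls of the root endodermis after the Casparian strip has formed, and it limits the passage of water and solutes. Its monomers are made inside the cell and have to cross the plasma membrane, and half-size ABCG proteins, each with 1 ATP-binding domain and 1 membrane domain, form dimers that are thought to carry them. The reference annotation places ABCG1, ABCG2, ABCG6, ABCG16 and ABCG20 in a clade of 5, of which ABCG2, ABCG6 and ABCG20 are needed for the suberin barrier of roots and seed coats, and ABCG1 and ABCG16 for the pollen wall. ABCG11 exports cutin and wax precursors in the shoot epidermis, and for ABCG23 no substrate is stated here.

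The libraries held from 6978879 to 9247089 reads assigned to genes, and no 2 libraries of a genotype agreed within sampling noise. Values below are scaled counts, that is reads divided by a size factor per library, as mean ± SD over 3 replicates, unless a level per length is named. XAL1 itself lay between 250.1 and 268.7 in the WT libraries and between 76.5 and 103.2 in the xal1-2 libraries. WT replicate 3 stood apart from WT replicates 1 and 2 on the second principal component (-20.8 against 7.0 and 6.5), so some results are also given without it. Whole roots mix all cell types, and fewer cells of a type and less RNA per cell cannot be told apart.

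The 7 genes lie on 4 chromosomes (TAIR10.1 coordinates). ABCG1 spans chr2:16430085-16432751 and ABCG2 chr2:15673410-15675920, both on the minus strand, and ABCG6 spans chr5:4370692-4373201 on the plus strand. ABCG16 spans chr3:20416183-20418910 and ABCG20 chr3:19837148-19839983, and ABCG23 chr5:6545123-6547177, all on the minus strand. These 6 genes have 1 annotated exon each. ABCG11, at chr1:6142402-6146521 on the plus strand, has 10 exons. ABCG16 lies 1368 bases from ABCG17 in a tandem array, but ABCG17 and ABCG18 had no reads in any library and ABCG19 had reads in xal1-2 replicate 3 alone (3.53).

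Within the clade of 5, coding sequences were from 68.3% to 82.2% identical over 10 pairs, and the closest pairs were ABCG2 with ABCG20 (82.2%) and ABCG1 with ABCG16 (81.0%). The 11 pairs with ABCG11 or ABCG23 ran from 57.5% to 60.5%. The longest exact run of bases that a member shared with any of the other 27 half-size ABCG genes was 47, between the coding exons of ABCG2 and ABCG16, followed by 45 between ABCG2 and ABCG20. They are shown because a read lying wholly inside such a run could come from either gene.
ABCG2 and ABCG16, 47 bases, chr2:15674192-15674238 minus strand and chr3:20416979-20417025 minus strand (TAIR10.1): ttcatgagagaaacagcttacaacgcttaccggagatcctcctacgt
ABCG2 and ABCG20, 45 bases, chr2:15674206-15674250 minus strand and chr3:19837953-19837997 minus strand (TAIR10.1): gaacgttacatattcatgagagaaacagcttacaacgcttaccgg
How reads that match several genes were treated is not stated in the sources used here, and exchange of reads at these places was not tested.

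Another limit on single genes comes from antisense neighbours, since the libraries were stranded but whether counting used the strand is not stated in the sources used here. AT2G37362 runs opposite to ABCG2 and covers 95.3% of its exon bases. It had 40.4 ± 1.02 scaled counts in WT and 46.1 ± 8.56 in xal1-2 (log2 fold change 0.17, SE 0.22, limma adjusted p = 0.724), far below ABCG2. The 3' end of ABCG11 overlaps AT1G17850 on the opposite strand over 18.6% of its exon bases, and this neighbour was at 60.2 ± 10.4 in WT and 64.2 ± 6.68 in xal1-2 (limma adjusted p = 0.801). A second gene opposite to ABCG11, AT1G05337, covers 13.4% of its exon bases and had no reads in any library. ABCG1 shares 24 exon bases with SAC3A, and for ABCG6, ABCG16, ABCG20 and ABCG23 no annotated gene overlapped.

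Per length, the 7 genes spanned a wide range in WT roots. Levels in this and the next paragraph are reads scaled to exon length and to the library total (RPKM). ABCG6 was at 37.4 ± 4.76, ABCG2 at 18.4 ± 2.32, ABCG20 at 15.7 ± 1.88, ABCG23 at 12.4 ± 1.89 and ABCG1 at 11.3 ± 3.70 (SD, n = 3). ABCG16 followed at 2.92 ± 0.847 and ABCG11 at 1.34 ± 0.0590. ABCG6 stood above ABCG2 without overlap of libraries, while the ranges of ABCG2 and ABCG20, of ABCG20 and ABCG23 and of ABCG23 and ABCG1 overlapped. Within each WT library ABCG2 was above ABCG20 and ABCG20 above ABCG23, and ABCG1 was below ABCG23 in replicates 1 and 2 and above it in replicate 3. ABCG16 lay below ABCG1 and above ABCG11 without overlap. The median of 24324 genes with reads and an exon length was 6.46, which puts ABCG16 and ABCG11 below the middle of the transcriptome and the other 5 above it.

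**Figure D1:**
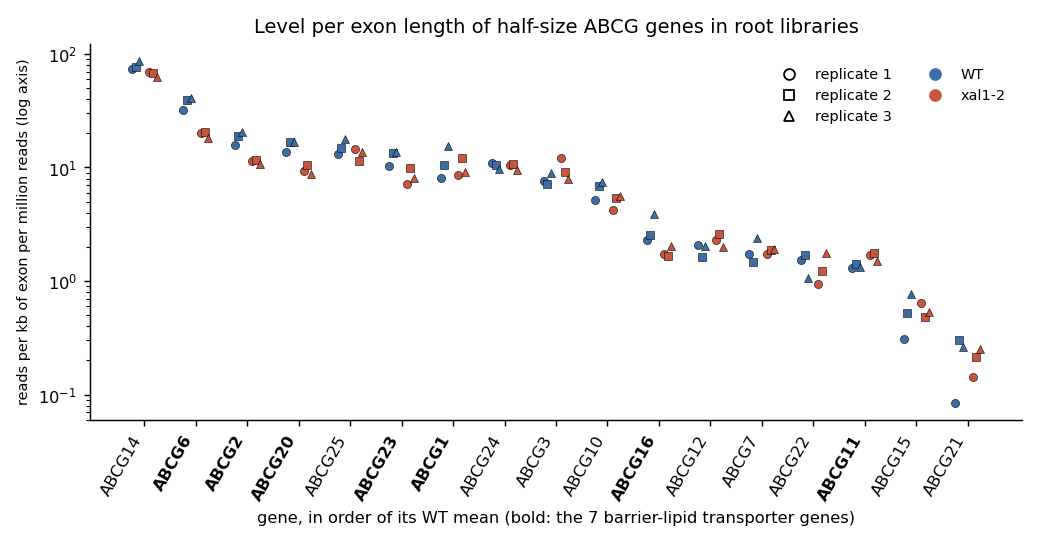
Level of half-size ABCG genes in each library, in RPKM on a log axis, for the 17 genes with a WT mean of at least 0.2, in the order of that mean. Blue marks WT, red xal1-2 and the symbol the replicate; of the barrier-lipid genes (bold) ABCG6 comes second after ABCG14, with WT libraries from 32.0 to 40.7, and ABCG11 comes at rank 15.

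Among all 28 half-size ABCG genes the highest level in WT was that of ABCG14, which exports cytokinin from the root, at 78.8 ± 6.84 RPKM. ABCG6, ABCG2 and ABCG20 held ranks 2, 3 and 4. In xal1-2 the same 3 genes were at 19.6 ± 1.15, 11.3 ± 0.480 and 9.56 ± 0.946 and held ranks 2, 4 and 8. Together the 7 genes made up 44.2% ± 2.19 of the half-size ABCG level per length in WT, from 41.8% to 45.9%, and 35.8% ± 2.08 in xal1-2, from 33.9% to 38.0%. The libraries of the genotypes did not overlap in this share. Since the 7 genes were chosen with the contrast known, a lower share can follow from that choice. It is a description and was not tested.

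The transporters of root suberin come first. In the order of replicates 1 to 3, here and below, ABCG6 had scaled counts of 690.4, 847.4 and 837.1 in WT, and 401.8, 422.3 and 373.3 in xal1-2. The genotypes were fully apart, and the gap between the nearest libraries of the genotypes, 268.1, exceeded the SD of either. The mean was 792 ± 87.8 in WT and 399 ± 24.6 in xal1-2, 0.504 of WT, a log2 fold change of -0.98 (SE 0.11) on the log2(scaled count + 1) scale.

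ABCG2 had 339.8, 397.8 and 416.7 scaled counts in WT and 226.0, 238.7 and 217.1 in xal1-2. Its mean was 385 ± 40.1 and 227 ± 10.9, a log2 fold change of -0.75 (SE 0.11). ABCG20, its closest relative in sequence, had 331.1, 405.5 and 392.1 in WT and 211.2, 246.7 and 201.2 in xal1-2, with means of 376 ± 39.7 and 220 ± 23.9 (log2 fold change -0.77, SE 0.12). In both genes the WT and mutant libraries were separate, WT replicate 1 was the lowest WT library and xal1-2 replicate 2 the highest mutant library.

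The proportions among these 3 genes were steady within a genotype. The ratio of ABCG2 to ABCG20 per length was 1.17 ± 0.0470 in WT and 1.19 ± 0.0708 in xal1-2, so that both genes were lower by a like proportion. The ratio of ABCG6 to ABCG2 was 2.03 ± 0.0637 in WT and 1.73 ± 0.0311 in xal1-2, and its libraries did not overlap, with a lowest WT value of 1.98 and a highest mutant value of 1.76. ABCG6 accordingly made up 37.7% ± 1.22 of the summed level per length of the 7 genes in WT and 31.6% ± 1.69 in xal1-2.

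The other pair of the clade, ABCG1 and ABCG16, is known from the pollen wall, and ABCG1 has also been tied to root suberin. ABCG1 had 172.6, 222.6 and 311.6 scaled counts in WT and 168.9, 244.0 and 182.7 in xal1-2. The genotypes overlapped, with WT replicate 3 above every mutant library, and the SD of ABCG1 in WT, 29.9% of the mean, was the highest of the 7. The means were 236 ± 70.4 and 199 ± 40.0, a log2 fold change of -0.22 (SE 0.20), which rested on WT replicate 3 and was -0.0001 without it. ABCG16 had 54.3, 59.5 and 86.8 in WT and 37.7, 37.3 and 45.0 in xal1-2. Its libraries did not overlap, with means of 66.9 ± 17.5 and 40.0 ± 4.36 and a log2 fold change of -0.70 (SE 0.23), or -0.50 without WT replicate 3. The ratio of ABCG1 to ABCG16 per length was 3.86 ± 0.320 in WT and 5.55 ± 1.47 in xal1-2.

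ABCG23 and ABCG11 lie outside the clade. ABCG23 had 181.3, 234.7 and 229.4 scaled counts in WT and 117.6, 165.9 and 134.1 in xal1-2, again separate, with means of 215 ± 29.4 and 139 ± 24.6 (log2 fold change -0.63, SE 0.16). The nearest libraries of the genotypes, WT replicate 1 and xal1-2 replicate 2, were 15.4 apart, less than the SD of either genotype. ABCG11 was the one member with a higher mean in the mutant. It had 35.8, 38.6 and 34.7 in WT and 43.4, 46.1 and 38.8 in xal1-2, means of 36.4 ± 1.98 and 42.8 ± 3.69 and a log2 fold change of 0.23 (SE 0.21). Between 33 and 52 reads stood behind each ABCG11 value, for which counting error alone is 16.8% of the WT mean per library, so a difference of 17.6% was not detectable at this depth.

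**Figure D2:**
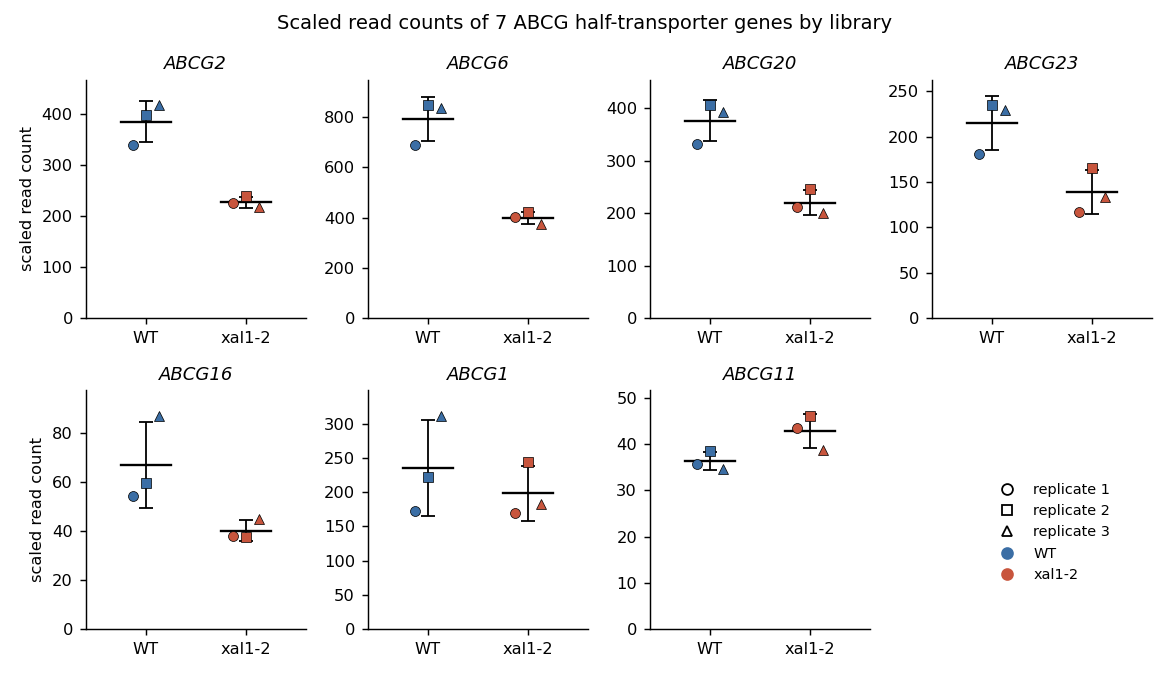
Scaled read counts of the 7 genes in each WT (blue) and xal1-2 (red) library, with the replicate as symbol; horizontal lines are means and error bars SD over 3 replicates, and each panel has its own axis from 0. The mutant libraries lie below the WT libraries for ABCG2, ABCG6, ABCG20, ABCG23 and ABCG16, overlap them for ABCG1 and lie just above them for ABCG11 (38.8 against 38.6).

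Put against all genes, the 7 members divide as follows, with nothing read from the counts since this contrast was known when they were chosen. Every xal1-2 library lay below every WT library for 5 of them, where 11.7% of 24441 genes with reads did so and 14.5% of those at or above the median level, and above for 1, where 12.1% did so. ABCG2, ABCG6, ABCG20 and ABCG23, 4 of the 7, were among the genes called lower by limma-trend at an adjusted p under 0.05, where 2.27% of all genes were (3.93% in either direction, 1.66% higher) and 3.25% of genes at or above the median level. The same 4 were called by edgeR, which called 5.56% of its genes (3.07% lower, 2.49% higher), and by DESeq2, which called 5.62% (3.57% lower, 2.05% higher). Without xal1-2 replicate 1 this number was 1 (ABCG6) and without WT replicate 2 it was 2 (ABCG2 and ABCG6). Over all genes, the calls in these fits were 81 and 193, against 961 with every library. ABCG23 was called under 4 of 15 alternatives. It was lost when any 1 of the 6 libraries was left out, with library totals, with TMM factors, with a pseudocount of 0.1 or 5 and with limma-voom. The median log2 fold change of the 7 was -0.70, beside -0.00 over all genes tested. In the authors' deposited table the log2 fold changes ran from -0.99 (ABCG6) to 0.23 (ABCG11), in the same order of sizes for ABCG6, ABCG20, ABCG2 and ABCG16.

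Apart from the genotype, the members varied together among libraries of a genotype. The plot of deviations from the genotype mean shows WT replicate 1 below its genotype mean for all 7 genes (-0.40 for ABCG1 to -0.02 for ABCG11, log2 units) and xal1-2 replicate 2 above it for 6, with ABCG16 at -0.09. Over the 6 libraries, Pearson's r between these deviations was 0.96 for ABCG2 with ABCG6, 0.93 for ABCG6 with ABCG20 and 0.89 for ABCG2 with ABCG20. ABCG23 went with ABCG20 (0.89) and ABCG1 with ABCG2 (0.89). ABCG16 and ABCG11 were looser, and the lowest of the 21 values was theirs with each other (-0.60). The median over the 21 pairs was 0.68 and 14 exceeded 0.5, beside a median of -0.00 and 21.7% of values above 0.5 over all pairs of genes at or above the median level. ABCG11 and ABCG16 lay below that level (96.7 scaled counts), so their pairs are set beside pairs of more abundant genes. These points share 6 libraries, each of them 1 pool of plants, and removing 2 means leaves 4 free values per gene, so they are given as a description.

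**Figure D3:**
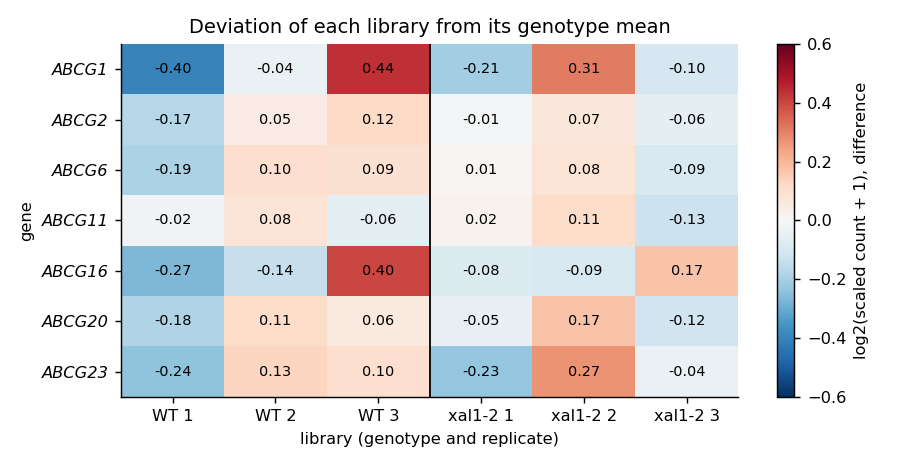
Deviation of log2(scaled count + 1) of each gene in each library from the mean of its genotype, with red above and blue below the mean and the value printed in each cell. WT replicate 1 is below the mean in every row, and xal1-2 replicate 2 is above it in every row but that of ABCG16.

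The genes outside the list whose levels followed the mean profile of the 7 most closely over the 6 libraries were AT1G71870 (Pearson's r 0.994), GAE6 (0.988), MGT10 (0.987), AT5G47970 (0.985) and AT4G32285 (0.983), out of 12216 genes ranked. The profile holds the contrast known when the members were chosen. As the highest of 12216 values on 6 points, these r values are high by selection and are a description. AT1G71870 had a mean of 207 in WT and 145 in xal1-2, a log2 fold change of -0.51 (SE 0.16). None of the 5 was called by limma, edgeR or DESeq2 (limma adjusted p from 0.106 to 0.462; 0 of the 5 by each tool), and for 3 of them the libraries of the genotypes overlapped.

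The remaining 21 half-size ABCG genes are those that the choice of members left over, so their values are no independent contrast to the members. Of 18 with reads, none was called by limma, nor any of the 9 that passed the low-count filter by edgeR or DESeq2. An unadjusted limma p under 0.05 was found for 1, a count for which the share of all genes was not computed. Of the log2 fold changes 9 lay above 0 and 9 below, with a median of 0.03. Limma called 3.93% of all genes in either direction, so few calls would be found in a list of this size at that share. Over the 9 genes with a mean of at least 10 scaled counts in a genotype the median was -0.07. ABCG14 was at 1780 ± 106 in WT and 1445 ± 68.1 in xal1-2 (log2 fold change -0.30, SE 0.10, limma adjusted p = 0.118) and was the single gene of the 18 whose libraries did not overlap. Among all genes with reads, 11.7% lay fully lower and 12.1% fully higher in xal1-2. ABCG24 was at 339 ± 29.5 and 322 ± 20.4 (-0.07, SE 0.11, limma adjusted p = 0.730). ABCG12, the wax exporter that pairs with ABCG11 in the shoot epidermis, was at 42.3 ± 5.33 and 48.7 ± 6.80 (0.20, SE 0.21, limma adjusted p = 0.678). A missed threshold does not show that these genes were alike in both genotypes, and the difference between members and other half-size genes was not tested.

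The full-size ABCG genes encode single proteins that join both units of a dimer. None of the 15 was called by limma, beside 3.93% of all genes in either direction, and the median log2 fold change was 0.06. An unadjusted limma p under 0.05 was found for 6, and nothing is read from this count, since the share of all genes was not computed. Over the 11 genes with a mean of at least 10 scaled counts in a genotype the median was -0.26. The libraries of the genotypes did not overlap for 6 of the 15, with 4 lower and 2 higher in xal1-2. Over all genes with reads, 11.7% lay fully lower and 12.1% fully higher. The summed scaled count of the 15 was 0.880 of that in WT. ABCG36 and ABCG34, the most abundant of them, were at 7248 ± 1011 and 6751 ± 998 in WT and 6025 ± 707 and 5725 ± 85.5 in xal1-2 (limma adjusted p = 0.393 and 0.437). edgeR called ABCG39 higher (16.3, 9.92 and 12.8 in WT, 43.4, 26.6 and 24.7 in xal1-2, edgeR adjusted p = 0.0482, beside 0.0582 in limma), and DESeq2 called ABCG35 lower (2180 ± 87.5 in WT, 1657 ± 182 in xal1-2, DESeq2 adjusted p = 0.0277, beside 0.0672 in limma). ABCG32, a full-size exporter of cutin precursors, was at 93.8 ± 13.9 and 59.8 ± 15.8 (log2 fold change -0.66, SE 0.21, not called by limma, edgeR or DESeq2).

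Transcripts of the enzymes that make suberin monomers were also lower in part. Of 13 suberin synthesis genes 4 fell, 9 were not called and none rose, with all 13 log2 fold changes below 0 and a median of -0.52. Over all genes with reads, limma called 2.27% lower and 1.66% higher, and 50.5% of log2 fold changes lay below 0. The fatty acid hydroxylase gene CYP86A1 fell by 0.88 on the log2 scale (SE 0.09, limma adjusted p = 0.000807) and the acyltransferase gene GPAT5 by 0.91 (SE 0.12, limma adjusted p = 0.00249). The elongase genes KCS1 and KCS2 fell by 0.72 and 0.62 (limma adjusted p = 0.00809 and 0.0497). ASFT, which adds the ferulate of suberin, was at 1785 ± 279 in WT and 1527 ± 199 in xal1-2 (limma adjusted p = 0.412). Without WT replicate 2 or xal1-2 replicate 1, CYP86A1 and GPAT5 alone were called. Leaving out WT replicate 3, xal1-2 replicate 2 or xal1-2 replicate 3, the genes called were CYP86A1, GPAT5 and KCS1. In the order named, these fits called 193, 81, 871, 326 and 535 genes in all, against 961 with every library.

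Cutin and its relatives use other enzymes of the same families. Of 10 cutin synthesis genes 3 fell, 7 were not called and none rose, with a median log2 fold change of -0.51. The share called lower by limma over all genes was 2.27%. The acyltransferase genes GPAT6 and GPAT4 fell by 0.99 (SE 0.15, limma adjusted p = 0.00543) and 0.72 (SE 0.15, limma adjusted p = 0.0261), and the hydroxylase gene CYP86A2 by 0.63 (SE 0.12, limma adjusted p = 0.0193). None was called without xal1-2 replicate 1, and GPAT6 alone without WT replicate 2 or without xal1-2 replicate 2. GPAT6 and CYP86A2 but not GPAT4 were called without WT replicate 3 or without xal1-2 replicate 3. In the order named, these fits called 81, 193, 326, 871 and 535 genes in all, against 961 with every library.

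**Figure D4:**
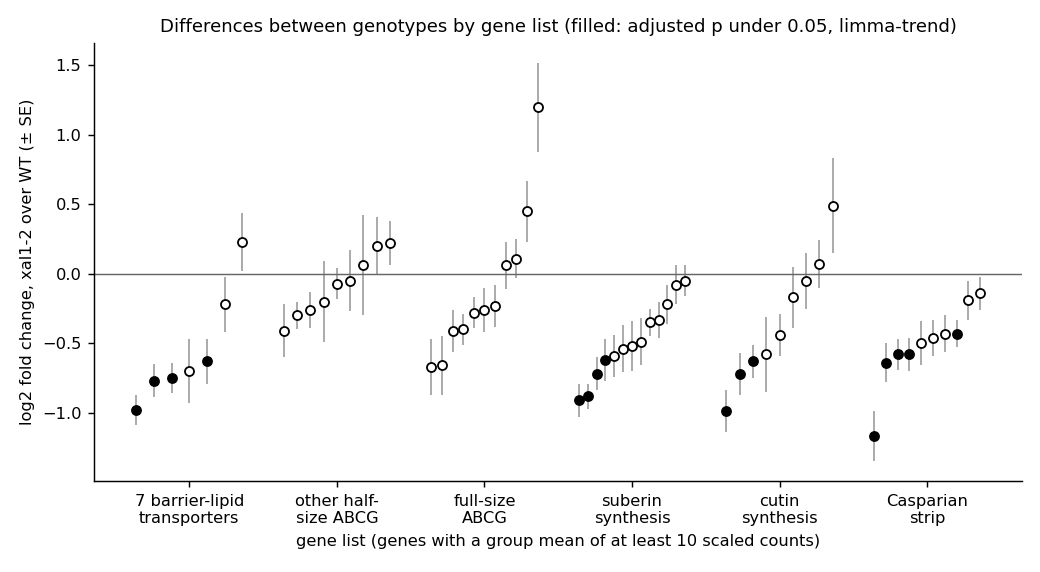
Log2 fold change (xal1-2 over WT, with SE) of each gene in 6 lists, for the 59 genes with a mean of at least 10 scaled counts in a genotype, sorted within a list; filled points have a limma-trend adjusted p under 0.05. Filled points lie in the lists of barrier-lipid transporters, suberin synthesis, cutin synthesis and the Casparian strip, all below 0, and the other half-size and full-size ABCG genes have none. Over all genes, 3.93% were called by limma-trend.

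Genes of the Casparian strip, which forms in the same tissue as root suberin, were lower in part. Of 10 Casparian strip genes 5 fell, 5 were not called and none rose, and all 10 lay below 0. Of all genes, 2.27% were called lower by limma and 50.5% lay below 0. Among those that fell, CASP1, CASP5, ESB1 and SGN3 did so by 0.43 to 1.17 on the log2 scale. The summed scaled count of all 10 ran from 8575 to 11212 in WT and from 7014 to 7367 in xal1-2. Within WT this sum was lowest in replicate 3, whereas all 7 members had a value below their WT mean in replicate 1. Without WT replicate 3 the number called was 8, and without xal1-2 replicate 1 it was 0. It was 1 without WT replicates 1 or 2 or xal1-2 replicate 3, and 2 without xal1-2 replicate 2. In the order named, these fits called 871, 81, 430, 193, 535 and 326 genes in all, against 961 with every library. SCR, which encodes a transcription factor of endodermal identity, was at 336 ± 27.5 in WT and 355 ± 39.5 in xal1-2 (log2 fold change 0.08, SE 0.12, limma adjusted p = 0.744), and MYB36, the regulator of Casparian strip genes, at 260.5 ± 4.44 and 237 ± 32.3 (limma adjusted p = 0.566).

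Relative to counts of these genes, ABCG2, ABCG6 and ABCG20 together were lower in the mutant without overlap in 2 of 3 comparisons. They are the members with the lowest log2 fold changes, and ABCG1 is not among them. The summed scaled count of ABCG2, ABCG6 and ABCG20 in xal1-2 was 0.545 of WT, and that of the 13 suberin synthesis genes 0.737. Among the 13, GPAT5 and CYP86A1 had the lowest ratios, 0.532 and 0.542, and the most abundant, ASFT, was at 0.856. The comparison with their sum thus depends on the genes in it. Reads of ABCG2, ABCG6 and ABCG20 together were 18.8 ± 0.408 per 100 reads of the 13 suberin synthesis genes in WT and 13.9 ± 1.06 in xal1-2, with no overlap of libraries (18.5 to 19.2 against 12.9 to 15.0). Per 100 reads of SCR they were 462 ± 44.2 and 239 ± 21.3, also with no overlap. Per 100 reads of the 10 Casparian strip genes they were 15.5 ± 3.53 and 11.8 ± 0.644, where WT replicate 1, at 12.1, lay below xal1-2 replicate 2, at 12.3. These ratios rest on the same contrast as the choice of members and carry no test, and the part of the endodermal genes in the members' values was not tested.

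**Figure D5:**
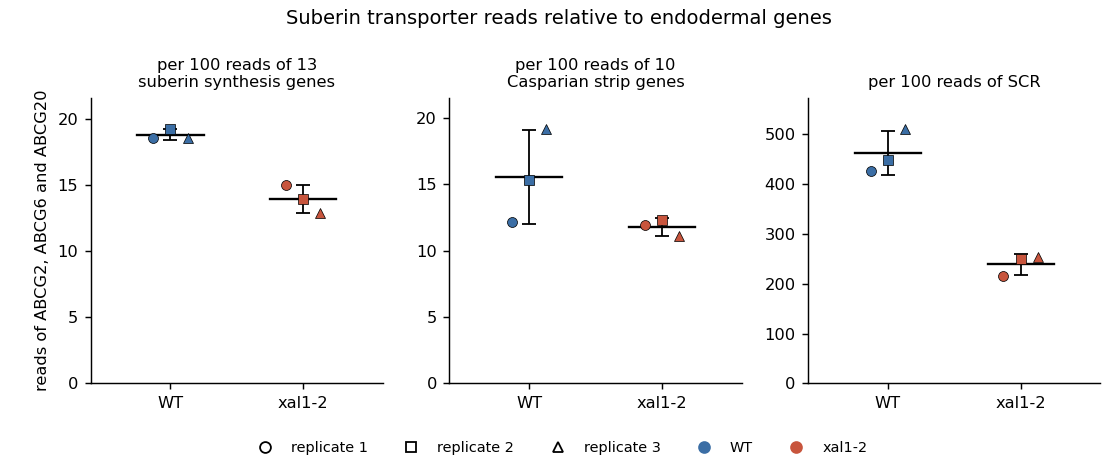
Reads of ABCG2, ABCG6 and ABCG20 together in each library, per 100 reads of 13 suberin synthesis genes, of 10 Casparian strip genes and of SCR; lines are means and error bars SD over 3 replicates, blue for WT and red for xal1-2. The genotypes are apart in the left and right panels and overlap in the middle one, where WT runs from 12.1 to 19.2 and xal1-2 from 11.1 to 12.3.

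Among markers of other tissues, SUC2 was the single gene called by limma. Of 6 root hair genes none was called (summed scaled count 3214 to 5036 in WT and 2776 to 4576 in xal1-2), nor were any of 4 root cap genes (132 to 149.9 and 156 to 191.7, without overlap) or of 9 genes of green tissue (3673 to 4806 and 2809 to 5117, with RBCS2B at 0 in 3 libraries). In edgeR and DESeq2 these 3 lists had 0 calls too, and 0, 1 and 0 of their genes had an unadjusted limma p under 0.05. The share of all genes at that unadjusted p was not computed. Of 5 stele genes the sucrose carrier gene SUC2 fell, from 462 ± 105 to 252 ± 88.6 (log2 fold change -0.91, SE 0.22, limma adjusted p = 0.0436), and the other 4 were not called. The share of all genes called by limma was 3.93%. All 4 root cap genes had log2 fold changes above 0. Of these BRN2 alone was fully higher in xal1-2 (log2 fold change 0.74, SE 0.23, limma adjusted p = 0.101), where 12.1% of all genes were.

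The promoters of the 4 genes called lower are shown because these genes were lower together in the mutant. Each is the 250 bases before the first annotated transcript base in TAIR10.1 (RefSeq), 5' to 3' on the gene's strand, with capitals on motif matches. The motifs searched, on both strands, were the AC elements bound by R2R3-MYB factors, with the letters ACCTACC for the first form, the letters ACCAACC for the second form and the letters ACCTAAC for the remaining form, and the core of the ABA-responsive element, with the letters ACGTG.
ABCG2, chr2:15675921-15676170 minus strand: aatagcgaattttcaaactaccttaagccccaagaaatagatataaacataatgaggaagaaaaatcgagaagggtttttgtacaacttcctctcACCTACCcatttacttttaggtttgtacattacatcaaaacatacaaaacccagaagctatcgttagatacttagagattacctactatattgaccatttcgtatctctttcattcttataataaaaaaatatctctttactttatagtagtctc
ABCG20, chr3:19839984-19840233 minus strand: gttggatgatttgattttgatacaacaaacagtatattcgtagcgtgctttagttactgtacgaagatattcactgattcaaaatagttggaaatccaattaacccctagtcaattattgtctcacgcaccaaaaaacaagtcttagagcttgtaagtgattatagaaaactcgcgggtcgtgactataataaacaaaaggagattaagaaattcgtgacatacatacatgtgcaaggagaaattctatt
ABCG6, chr5:4370442-4370691 plus strand: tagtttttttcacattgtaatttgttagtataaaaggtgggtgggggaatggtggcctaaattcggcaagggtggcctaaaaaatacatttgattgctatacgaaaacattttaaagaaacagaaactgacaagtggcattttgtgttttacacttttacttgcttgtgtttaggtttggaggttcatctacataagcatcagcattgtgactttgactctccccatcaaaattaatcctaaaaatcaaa
ABCG23, chr5:6547178-6547427 minus strand: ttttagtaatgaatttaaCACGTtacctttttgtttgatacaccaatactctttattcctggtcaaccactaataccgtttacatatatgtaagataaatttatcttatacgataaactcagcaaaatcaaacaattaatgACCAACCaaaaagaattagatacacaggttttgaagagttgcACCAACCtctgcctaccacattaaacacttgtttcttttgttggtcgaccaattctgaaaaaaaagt
ABCG2 held ACCTACC once, from -155 to -149, and ABCG23 held ACCAACC in 2 places and ACGTG in 1. The ABCG2 window overlaps the antisense gene AT2G37362, which ends at chr2:15676081, and the ACCTACC match lies inside that gene. ABCG6 and ABCG20 held none of the motifs. Among the 3 members not shown, ABCG1 held ACCTAAC and ACGTG. Of 31345 promoters of the same length, 1.16% held ACCTACC, 2.77% ACCAACC, 2.49% ACCTAAC and 21.8% ACGTG. The CArG box, bound by MADS-box factors, was in none of the 7 windows and in 2.36% of all. These are matches of letters in a short window and are not evidence for or against binding of any factor.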

How the data were processed

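Per the labels, total RNA of root pools was made into stranded paired-end mRNA libraries. The submitters' processing notes name TAIR10 as the build, and Subread 2.0.1, Trimmomatic 0.39, DESeq2 and FastQC 0.11.9 as tools, with no settings stated. The deposited table holds, per library, a signal that is the read count of each gene divided by a size factor by the authors, with their mean. Multiplied by that factor, 100% of values above 0 were whole reads within 0.001, and the factors equal the median of ratios. The deposited log2 fold change of the authors was copied only where named, and their statistic (a score), standard error and p-values are not printed.

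The test was limma-trend (limma 3.58.1, R 4.3.3) on log2(scaled count + 1) for the 24441 genes with any read, with genotype as single covariate and Benjamini-Hochberg adjustment over all of them and calls at adjusted p under 0.05. On this scale the changes of low genes are understated. edgeR 4.0.16 (quasi-likelihood, 18918 genes) and DESeq2 1.42.0 on the recovered reads were among the alternatives, and these, limma-trend and limma-voom were tested on simulated counts. Levels per length used exon lengths of TAIR10.1, in which 32548 identifiers matched and 285 did not.

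Members and gene lists were chosen with earlier results of these data known. The text names all members and XAL1, and, for the lists of other half-size ABCG, full-size ABCG, suberin, cutin and Casparian strip genes, each called gene (1 is not reported here) and the 2 most abundant, and the 5 genes most like the members' mean profile. SCR, MYB36, SUC2, BRN2, RBCS2B, ABCG12, ABCG17, ABCG18, ABCG19, ABCG30, ABCG32, ABCG35 and ABCG39 were chosen after their values were seen. Replicates are biological per the labels, and counting errors cover counting alone.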

Additional observations from a re-analysis of the deposited data

How the results depend on the processing

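The log2 fold changes of the 7 members kept their sign and moved by less than 1 SD between replicates under all 15 alternatives (105 values). They ran from -1.08 to -0.92 for ABCG6, from -0.84 to -0.69 for ABCG2, from -0.86 to -0.71 for ABCG20, from -0.76 to -0.52 for ABCG23, from -0.84 to -0.50 for ABCG16, from -0.42 to -0.0001 for ABCG1 and from 0.17 to 0.29 for ABCG11. Over all genes limma-trend called 961, and 81 to 871 when 1 library was left out (lowest without xal1-2 replicate 1). The other alternatives called from 703 (the study's threshold) to 1054 (DESeq2). When libraries were scaled by their totals, 569 genes were higher and 401 lower, against 405 and 556. No full-size ABCG gene was called in the main test, and 1 was with a mean scaled count of at least 10 (ABCG39), in edgeR, in DESeq2 and without WT replicate 3 (ABCG30). With 1 library left out, 0 to 1 full-size, 2 to 5 suberin synthesis, 0 to 3 cutin synthesis and 0 to 8 Casparian strip genes were called, and 0 other half-size ABCG genes. Fewer libraries lower power by construction. KCS2 was called under 4 of 15 alternatives and SGN3 under 7 (adjusted p up to 0.218 and 0.189), while CYP86A1 and GPAT5 were called under all 15. Same-numbered libraries did not deviate together in 2 of 3 pairs (r -0.009 and -0.077) and did in replicate 2 (0.418), so the numbers were not taken as pairs, and a fit with the replicate number as a block called 839 genes, with 6 suberin synthesis, 3 cutin synthesis, 4 Casparian strip and 0 other ABCG genes. Depth limits ABCG11 and ABCG16 most, with 240 and 325 reads over 6 libraries.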
